A study of Mus musculus with 21 samples.

Results

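Germinal centre B cells that carry a lambda light chain were compared with those of the same mice that carry a kappa light chain. The cells came from the sorted non-plasma-cell (non-PC) fraction and from the states that the authors' cell table names light zone (LZ) and dark zone (DZ). A cell was called lambda when Iglv1 and Iglc1 together reached 3 unique molecular identifiers (UMIs, each standing for 1 captured transcript) and were at least 2 times Igkc. It was called kappa when Igkc reached 3 UMIs and was at least 2 times the sum of Iglv1 and Iglc1. This gave 888 lambda cells and 3296 kappa cells, 4184 of the 5463 LZ and DZ cells of that fraction and of 6619 cells in the series. The other 1279 LZ and DZ cells met neither rule. The cells were thus chosen by their counts of these 3 genes, which are given as a description without a test.

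All mice had been immunised under the skin at the tail base with 100 µg of NP-KLH, the hapten NP on a carrier protein, in Sigma Adjuvant System. All had also been gavaged with 5 mg of tamoxifen, at least 6 days later, which switches on eYFP in cells that carry Cre-ERT2. The gene driving Cre-ERT2, the strain and the age are not given in the sources used here, and there was no unimmunised group. Draining lymph nodes were taken from 2 mice each on days 10, 16 and 22, and live IgD-negative eYFP-positive cells, marked with 1 antibody tag per mouse, were sorted and mixed within each fraction for 5′ single-cell capture. Lambda and kappa cells therefore shared mice and capture, and every comparison of them was paired within the 6 mice. In mouse order (day 10 mice 1 and 2, day 16 mice 1 and 2, day 22 mice 1 and 2, the order of all values below), there were 137, 245, 125, 136, 68 and 177 lambda cells, against 254, 575, 397, 533, 917 and 620 kappa cells. Outside immunoglobulin genes these cells held 595200 to 2557824 UMIs per mouse for lambda and 2730268 to 8858114 for kappa, so lambda values carry the larger counting error. Single cells of the series held 1335 to 70744 UMIs, with a median of 8409 in LZ and DZ cells.

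A B cell receptor pairs a heavy chain with a light chain made from either the kappa or a lambda locus, and most mouse B cells use kappa. During development the kappa locus is usually rearranged first, and a cell that fails there can go on to a lambda locus. In the germinal centre, receptor genes mutate while cells divide in the dark zone, and cells compete for antigen and T cell help in the light zone. The response to NP in many inbred mice is known for receptors that join the heavy chain variable gene Ighv1-72, also called VH186.2, to the lambda 1 chain made from Iglv1 and Iglc1.

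The genes behind the calls are shown from GENCODE release M21 on GRCm38, 5′ to 3′, for the first 90 bases of the second exon of the variable genes and of the constant exon. Iglv1 lies at chr16:19085232-19085321 on the minus strand and Ighv1-72 at chr12:115758199-115758288 on the minus strand; Iglc1 lies at chr16:19061982-19062071, Iglc3 at chr16:19065592-19065681 and Iglc2 at chr16:19198764-19198853, all on the minus strand, and Igkc at chr6:70726435-70726524 on the plus strand. They are printed because short reads must tell them apart: capitals mark bases that differ from the aligned base of Iglc1, or have no partner there.
Iglv1: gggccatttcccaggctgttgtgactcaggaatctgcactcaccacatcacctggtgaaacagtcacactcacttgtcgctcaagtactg
Ighv1-72: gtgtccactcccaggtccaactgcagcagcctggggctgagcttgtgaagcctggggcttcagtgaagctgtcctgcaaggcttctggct
Iglc1: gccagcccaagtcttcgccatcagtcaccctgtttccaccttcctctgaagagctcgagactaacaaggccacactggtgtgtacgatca
Iglc2: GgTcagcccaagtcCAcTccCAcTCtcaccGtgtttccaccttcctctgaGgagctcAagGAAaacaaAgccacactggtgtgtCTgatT
Iglc3: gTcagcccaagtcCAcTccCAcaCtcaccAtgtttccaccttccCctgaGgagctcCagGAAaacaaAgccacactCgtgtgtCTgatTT
Igkc: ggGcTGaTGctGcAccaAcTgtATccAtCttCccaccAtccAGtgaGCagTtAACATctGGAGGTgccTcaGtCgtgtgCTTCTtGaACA

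Over their coding bases Iglc1 was identical to Iglc2 at 73.4%, to Iglc3 at 74.5% and to Igkc at 53.9% of aligned positions. Iglc2 and Iglc3 were identical at 96.2%, with a longest identical run of 79 bases, and Iglv1 and Iglv2 at 96.3%, with a run of 104 bases. Counts of Iglc2 against Iglc3, and of Iglv1 against Iglv2, are uncertain to that extent.

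The variable genes separated the calls more sharply than the constant genes did, although Iglv1 is itself part of the rule. The median lambda cell held 52 UMIs of Iglv1, 4 of Iglc1, 2 of Igkc and 5 of its highest Igkv gene, whereas the median kappa cell held 0 of Iglv1, 2 of Iglc1, 14 of Igkc and 62 of its highest Igkv gene. By mouse, the median Iglv1 count of lambda cells was 78, 56, 57, 56, 28.5 and 21 UMIs, and that of kappa cells was 0 in each mouse. Lambda constant genes were counted in most kappa cells as well: Iglc1 in 90.5% of lambda cells and 75.1% of kappa cells, and Iglc3 in 84.7% of lambda cells and 96.8% of kappa cells. A count of Iglc1 alone therefore did not mark a lambda cell in these files.

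The lambda label did not hold for every cell the rule took. Of the 888 lambda cells, 653 (73.5%) held 10 or more UMIs of Iglv1, and 0 of the 3296 kappa cells did. The rule itself counts Iglv1 against a kappa call, and 28 cells with neither call also held 10 or more. The remaining 235 lambda cells (26.5%) had a median of 1 Iglv1 UMI, and 195 of them held 10 or more UMIs of 1 Igkv gene, with a median of 59. Of the others, without an Igkv gene at 10 UMIs, 10 cells held 10 or more UMIs of Iglv2 or Iglv3. The 195 cells were not counted for these 2 genes. By mouse these 235 cells made up 16.8%, 25.7%, 19.2%, 23.5%, 35.3% and 39.0% of lambda cells, so more on day 22 than on day 10 in these mice. A further 220 lambda cells held both Iglv1 and an Igkv gene at 10 or more UMIs, most often Igkv6-15 (25 cells), and whether these are single cells or doublets was not tested. Among kappa cells, 3201 (97.1%) held an Igkv gene at 10 or more. Most results are therefore also given for variable-gene-supported cells, the 653 lambda cells with Iglv1 and the 3201 kappa cells with an Igkv gene at 10 UMIs or more.

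**Figure D1:**
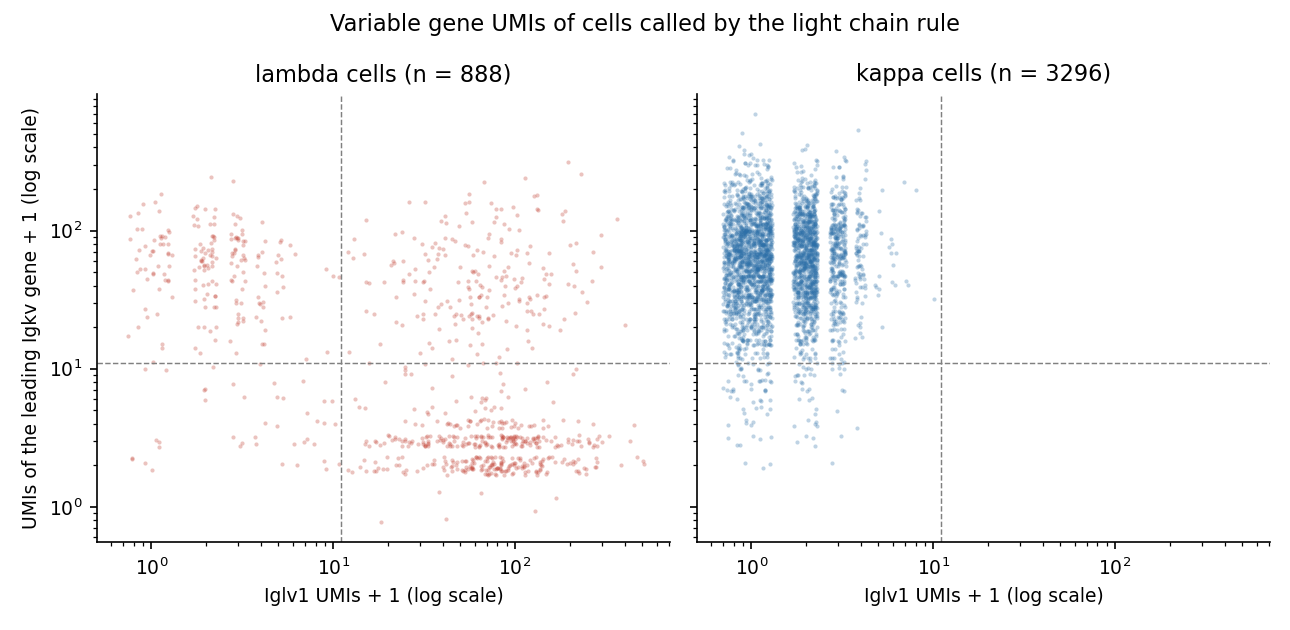
UMIs of Iglv1 (x axis) and of the highest Igkv gene (y axis) per cell, with 1 added, on log axes and with points spread sideways, for 888 lambda cells (left) and 3296 kappa cells (right); dashed lines mark 10 UMIs. Of the lambda cells, 653 lie right of the line and 235 left of it, and 0 kappa cells lie right of it.

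Near the thresholds the calls were less clear. The 65 lambda cells with 3 or 4 lambda UMIs had a median of 1 Iglv1 UMI and 42 UMIs of the highest Igkv gene, and 0 of them reached 10 Iglv1 UMIs. Among the 116 lambda cells with a lambda to kappa ratio from 2 to under 3, 20 reached 10 Iglv1 UMIs, compared with 18 of the 129 uncalled cells with a ratio from 1.5 to under 2. On the kappa side, 585 of 598 cells with a ratio from 2 to under 3 held an Igkv gene at 10 UMIs, compared with 315 of 328 uncalled cells just outside.

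The share of lambda among called cells was lower at later days. It was 35.0% and 29.9% on day 10, 23.9% and 20.3% on day 16, and 6.90% and 22.2% on day 22, with exact 95% intervals (Clopper-Pearson, counting error only) of 30.3 to 40.0, 26.8 to 33.1, 20.3 to 27.8, 17.3 to 23.6, 5.40 to 8.67 and 19.4 to 25.3. Day means were 32.5%, 22.1% and 14.6%. Both day 10 mice were above all later mice, while the day 16 and day 22 mice overlapped and the day 22 mice lay far apart. The slope was -1.49 percentage points per day (exact permutation test over 90 assignments of 6 mice to days, two-sided, p = 0.0444, where 0.0222 is the smallest possible).

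Counting variable-gene-supported cells, the shares were 31.4%, 24.4%, 20.9%, 16.7%, 4.68% and 15.5%, with a slope of -1.49 points per day (exact permutation p = 0.0222, n = 6). That support left out 16.8% and 25.7% of lambda cells on day 10, but 35.3% and 39.0% on day 22, when Iglv1 counts per lambda cell were lower. Calls that need 10 lambda UMIs, this one and the stricter one below, thus depend on lambda counts per cell as well as on the share. With a stricter light chain call (10 UMIs and 10 times the other chain), day means were 62.8%, 41.9% and 25.2%, with a slope of -3.13 points per day (exact permutation p = 0.0222, n = 6). With lambda also called from Iglc2, Iglc3, Iglv2 and Iglv3 they were 74.4%, 69.2% and 59.6%, with a slope of -1.23 (exact permutation p = 0.356, n = 6), so the level of the share depended on the call. When 1 mouse was left out, the slope stayed between -2.07 and -0.98 points per day. The exact permutation p fell under 0.05 only without day 22 mouse 2 (0.0333). With 5 mice there are only 30 assignments. Without a day 16 mouse, every slope has a mirror image of opposite sign, so p could not go below 0.0667, the value without day 16 mouse 2. Without day 22 mouse 1, the mouse with the lowest share, the slope was -0.98 with an exact p of 0.133. That mouse also had uneven kappa receptors: Ighv1-22 was the called heavy chain variable gene of 30.1% and Ighv1-58 of 16.6% of its kappa cells with such a call, and Igkv9-120 was the leading kappa variable gene of 32.1% of its kappa cells with an Igkv gene at 10 UMIs or more.

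**Figure D2:**
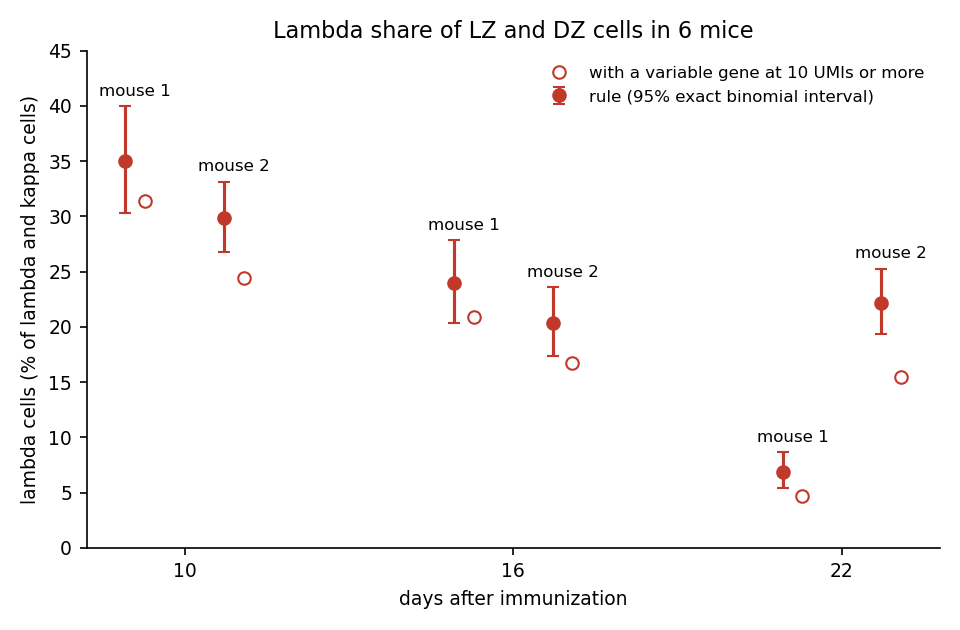
Lambda share among called LZ and DZ cells (percent) of each mouse by day after immunisation, by the rule (filled, bars are exact 95% intervals) and for variable-gene-supported cells (open); mice of 1 day are drawn side by side. The day 10 mice sit at 35.0% and 29.9% and the day 22 mice at 6.90% and 22.2%.

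Ighv1-72 was far more frequent in lambda cells than in kappa cells. At least 1 Ighv1-72 UMI was found in 52.6%, 50.2%, 49.6%, 31.6%, 13.2% and 33.3% of lambda cells, against 8.66%, 6.43%, 8.06%, 9.38%, 6.98% and 7.42% of kappa cells. Lambda was higher in 6 of 6 mice and the ranges did not overlap. The means were 38.4% ± 15.3 in lambda cells and 7.82% ± 1.09 in kappa cells (SD, n = 6). The exact sign-change permutation test (two-sided) gave p = 0.031, the smallest that 6 pairs allow. After Benjamini-Hochberg adjustment over 7 paired measures it was 0.219, which did not pass. A measure at the smallest p passes that adjustment only if most of the 7 measures reach it too, so the adjusted p cannot decide here. The same limit holds for the other adjusted p values of these paired measures. In variable-gene-supported cells the means were 47.1% ± 16.7 in lambda and 7.89% ± 1.21 in kappa cells, with lambda again higher in 6 of 6 mice. The exact permutation p was 0.031, and 0.109 after adjustment. The mean difference of 30.6 points under the rule was 14.6 points both with lambda also called from Iglc2, Iglc3, Iglv2 and Iglv3 (6 of 6 mice) and in IgG1 cells alone (5 of 6 mice).

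A cell can hold stray UMIs of a gene, for example from free RNA in droplets, so the share in kappa cells was set against a background. The source of such UMIs was not tested. Among cells whose called heavy chain variable gene was another one, 10.6% of lambda cells (44 of 415) and 6.28% of kappa cells (155 of 2467) still held an Ighv1-72 UMI, at median depths of 8797 UMIs in lambda and 8967 UMIs in kappa cells. The share in kappa cells was close to that background and is not read as use of the gene. As the called heavy chain gene itself, Ighv1-72 was found in 245 of 660 lambda cells (37.1%) and 35 of 2502 kappa cells (1.40%). Next among lambda cells came Ighv14-2 (7.58%), and the leading gene of kappa cells was Ighv1-22 (14.9%). Within the lambda class, an Ighv1-72 UMI was present in 51.6% of the 653 cells with Iglv1 at 10 UMIs and in 13.2% of the 235 without.

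Lambda cells were more often in the dark zone, without passing the test under the rule, before or after adjustment. The DZ share was 50.4%, 44.1%, 56.8%, 47.8%, 44.1% and 49.7% of lambda cells, against 38.2%, 34.1%, 35.5%, 36.6%, 51.6% and 40.6% of kappa cells. It was higher in lambda cells in 5 of 6 mice, with means of 48.8% ± 4.74 in lambda cells and 39.4% ± 6.37 in kappa cells (SD, n = 6; exact permutation p = 0.0625, adjusted 0.219). The exception was day 22 mouse 1. Among variable-gene-supported cells the means were 50.3% in lambda and 39.7% in kappa cells, higher in lambda in 6 of 6 mice, with an exact permutation p of 0.031 (n = 6) and 0.109 after adjustment. The mean difference was 9.38 points under the rule, 17.0 points with the stricter light chain call, and -5.73 points in IgG1 cells alone, with the sign turned round. Seen the other way, the lambda share was 41.6%, 35.5%, 33.5%, 25.0%, 5.96% and 25.9% in DZ cells, against 30.2%, 26.6%, 17.4%, 17.4%, 7.88% and 19.5% in LZ cells, a mean difference of 8.09 ± 5.97 points (SD, n = 6).

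None of the other paired measures passed the test under the rule. Cells in S phase by the authors' phase call made up 30.6% of lambda and 29.1% of kappa cells, and cells in G2 or M phase 22.6% of lambda and 25.4% of kappa cells. Among cells with a called isotype, IgG1 made up 30.8% of lambda and 37.8% of kappa cells, and IgM 55.5% of lambda and 50.2% of kappa cells. The median UMI count outside immunoglobulin genes was 8504.5 in lambda and 8457 in kappa cells, on average over mice. These 5 measures gave exact permutation p values from 0.156 to 0.844 (n = 6), and such a p does not show that the values were alike. In variable-gene-supported cells the G2 or M share was 25.4% in lambda and 25.9% in kappa cells, lower in lambda in 3 of 6 mice, and the 5 exact permutation p values ran from 0.156 to 0.719 (n = 6). With lambda also called from Iglc2, Iglc3, Iglv2 and Iglv3, the G2 or M share was 19.7% in lambda and 32.5% in kappa cells, lower in lambda in 6 of 6 mice (exact permutation p = 0.031, adjusted 0.0729). That wider call made most called cells lambda, with day means of 74.4%, 69.2% and 59.6%. Iglc3 was counted in 96.8% of the kappa cells of the rule. Its 2 groups are therefore not the lambda and kappa cells of the rule.

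**Figure D3:**
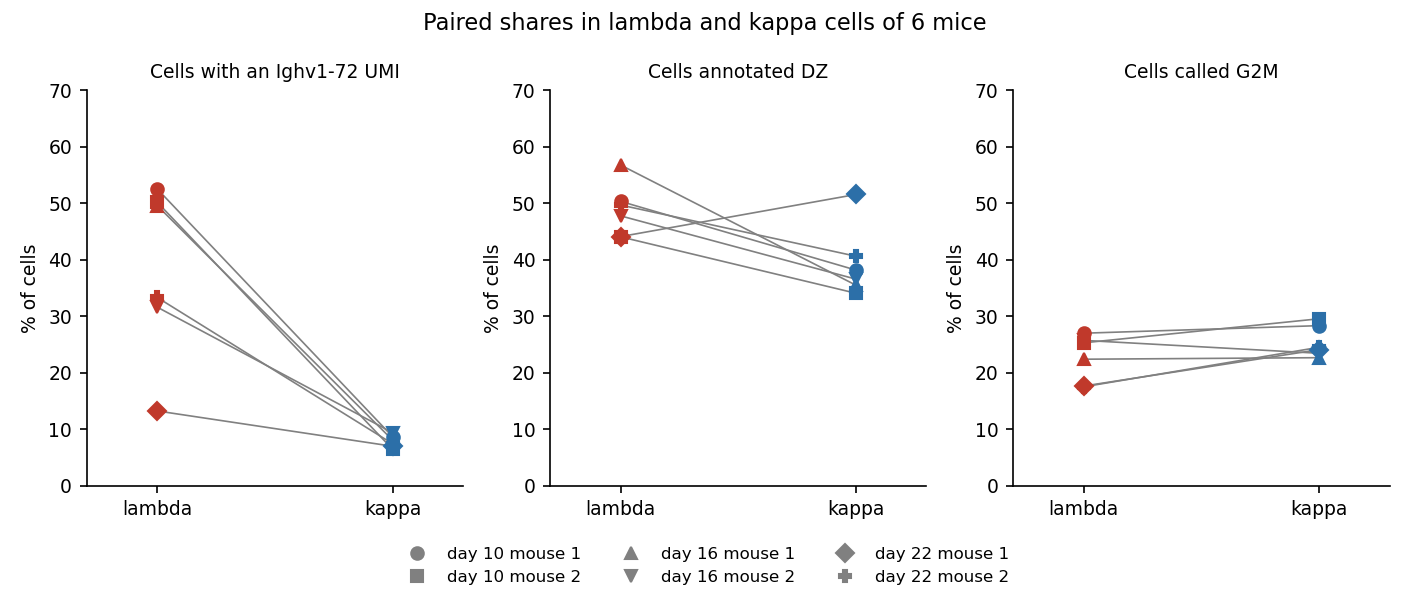
Percent of lambda cells (left in each panel) and kappa cells (right) with an Ighv1-72 UMI, in DZ, and called G2M, with 1 line per mouse and 6 mice. Ighv1-72 spans 13.2 to 52.6% in lambda cells and 6.43 to 9.38% in kappa cells, and in 5 of 6 mice the DZ share is higher in lambda cells.

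Few genes outside the immunoglobulin genes differed. Counts without the 253 immunoglobulin genes were summed per mouse and light chain and tested with edgeR's quasi-likelihood test, with the mouse as a block. Of 8416 genes tested, 33 (0.392%) passed a Benjamini-Hochberg adjusted p under 0.05, of which 15 were higher (0.178%) and 18 lower (0.214%) in lambda cells. In variable-gene-supported cells 34 of 8200 passed (0.415%), 14 higher (0.171%) and 20 lower (0.244%), and 14 genes were called in both, 42.4% of the first set and 41.2% of the second. The count depended on single mice: it was 7 without day 10 mouse 1, 6 without day 10 mouse 2, 21 without day 16 mouse 1 and 109 without day 22 mouse 1. RP23-435I4.11, Rpia, Nrgn, H2afx and Srgn stayed called whichever mouse was left out. Levels below are CPM, UMIs of a gene scaled to a common total of UMIs outside immunoglobulin genes, and log2 differences are lambda over kappa with their standard error. Summed levels of marker lists are instead scaled to all UMIs, immunoglobulin genes included.

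The largest difference was in RP23-435I4.11, a gene known in these files by a clone name. No position was found for that name in GENCODE M21. Immunoglobulin genes were left out by their symbols, so a light chain locus transcript under a clone name would have stayed in. Whether this gene is one was not tested. It was at 95.9, 77.9, 122, 46.1, 116 and 46.0 CPM in lambda cells, against 412, 376, 312, 373, 439 and 279 CPM in kappa cells. The log2 difference was -2.18 ± 0.09 (adjusted p = 3.07e-19). No lambda value came near the lowest kappa value. In variable-gene-supported cells the log2 difference was -2.01 ± 0.09, adjusted p = 4.08e-21. The gene was lower in both zones, by 2.17 on the log2 scale in LZ and by 2.26 in DZ.

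Rpia, ribose 5-phosphate isomerase of the pentose phosphate pathway, was the tested gene nearest to Igkc in the list of kappa locus neighbours. It lies 38.8 kb from Igkc, at chr6:70765720-70792232 on the minus strand, as a protein-coding gene. Its level was 72.6, 58.7, 55.5, 61.1, 65.3 and 54.7 CPM in lambda cells, against 102, 96.3, 81.0, 90.1, 98.4 and 85.1 CPM in kappa cells. Every lambda value was below every kappa value. The log2 difference was -0.60 ± 0.07 (adjusted p = 2.06e-06). It grew to -0.84 ± 0.08, adjusted p = 4.28e-09 in variable-gene-supported cells and to -1.24 in cells supported by a variable gene of 1 chain only. In LZ it was -0.57 ± 0.11 (adjusted p = 0.0151), and in DZ -0.72 ± 0.09 (adjusted p = 1.64e-05).

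The other genes around the light chain loci gave no call. Of 8 tested neighbours of the kappa locus, Rpia was lower and 0 were higher, with a median log2 difference of 0.06, beside a median of 0.0023 over all genes tested. Eif2ak3, an eIF2α kinase 118 kb from Igkc, had a log2 difference of 0.13 ± 0.14 with an edgeR adjusted p of 0.860, and Krcc1, 545 kb away, of 0.12 ± 0.07 with an adjusted p of 0.672. Of 10 tested neighbours of the lambda locus, 0 were called by edgeR at an adjusted p under 0.05 and 0 had an unadjusted p under 0.05; their median was 0.03.

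Nrgn, neurogranin, a calmodulin-binding protein best known in neurons, fell in lambda cells. Its level was 11.7, 34.8, 24.5, 23.7, 26.8 and 26.0 CPM in lambda cells, against 15.0, 53.5, 58.7, 42.0, 48.4 and 47.9 CPM in kappa cells. It was lower in lambda in 6 of 6 mice, with groups that overlap because day 10 mouse 1 was low in both. The log2 difference was -0.81 ± 0.11 (adjusted p = 2.07e-05), and -0.87 ± 0.12, adjusted p = 2.47e-05 in variable-gene-supported cells.

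Cd72, an inhibitory co-receptor of B cells, was lower in lambda cells in 6 of 6 mice. The levels were 107, 137, 82.5, 72.6, 46.9 and 62.0 CPM in lambda cells, against 168, 197, 85.9, 84.9, 51.3 and 70.1 CPM in kappa cells. Levels of both groups were highest on day 10, so the groups overlap while each pair points the same way. The log2 difference was -0.37 ± 0.07 (adjusted p = 0.00923), and -0.58 ± 0.08, adjusted p = 4.19e-05 in variable-gene-supported cells. The call was lost without either day 10 mouse (edgeR adjusted p = 0.167 and 0.395), and also with zone as a second block (adjusted p = 0.0717). Of the 26 receptor signalling genes tested, Cd72 was lower and 0 were higher, with a median of 0.01. Cd22, another inhibitory co-receptor, and Cd79b, a signalling chain of the receptor, did not pass, with log2 differences of -0.16 ± 0.06 (adjusted p = 0.368) and 0.08 ± 0.02 (adjusted p = 0.200).

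Srgn, which encodes the granule proteoglycan serglycin, was higher in lambda cells and stayed called when any 1 mouse was left out. It was at 897, 984, 813, 1022, 928 and 905 CPM in lambda cells, against 828, 862, 727, 859, 870.4 and 735 CPM in kappa cells. Lambda was higher in 6 of 6 mice. The log2 difference was 0.19 ± 0.03 (adjusted p = 0.00177), and 0.18 ± 0.03, adjusted p = 0.00273 in variable-gene-supported cells. Myl4, a myosin light chain, was at 94.6, 80.7, 65.3, 95.7, 50.3 and 50.7 CPM in lambda cells, against 59.5, 64.9, 37.3, 59.1, 47.6 and 42.5 CPM in kappa cells. Its log2 difference was 0.49 ± 0.08 (adjusted p = 0.00188), 6 of 6 mice were higher in lambda, and the pair of day 22 mouse 1 was the closest. In variable-gene-supported cells the log2 difference of Myl4 was 0.45 ± 0.09 (adjusted p = 0.0104). The call of Myl4 was lost without day 10 mouse 1 (edgeR adjusted p = 0.0503).

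A group of smaller differences followed. Ada, adenosine deaminase, averaged 126 ± 16.9 CPM in lambda cells and 104 ± 7.14 CPM in kappa cells (SD, n = 6) and had a log2 difference of 0.29 ± 0.06 (adjusted p = 0.0256). Cited2, a transcriptional co-regulator that binds CBP and p300, averaged 96.0 ± 12.7 CPM in lambda cells and 76.6 ± 2.07 CPM in kappa cells (SD, n = 6), with a difference of 0.30 ± 0.07 (adjusted p = 0.0379) and no overlap between the groups. Saraf, a regulator of store-operated calcium entry, had a difference of 0.62 ± 0.15 (adjusted p = 0.0391) at a low level, 22.3 ± 6.75 CPM in lambda cells and 13.7 ± 1.73 CPM in kappa cells (SD, n = 6), and did not pass in variable-gene-supported cells (adjusted p = 0.169). Cnp and Arl5c had differences of 0.19 ± 0.04 (adjusted p = 0.0379) and 0.29 ± 0.07 (adjusted p = 0.0485); Arl5c did not pass in variable-gene-supported cells (adjusted p = 0.278). Isg15, a ubiquitin-like protein induced by interferon, was the only called gene of 9 tested interferon response genes, at 0.64 ± 0.14 (adjusted p = 0.0256), and it did not pass in variable-gene-supported cells (adjusted p = 0.158). Ada, Cited2 and Cnp passed in variable-gene-supported cells (edgeR adjusted p = 0.00535, 0.0405 and 0.0470). Without either day 10 mouse, Ada, Cited2, Saraf, Cnp, Arl5c and Isg15 all lost their calls, with edgeR adjusted p values from 0.160 to 0.409. Without day 16 mouse 1, Cited2 (0.0928), Saraf (0.217), Cnp and Arl5c (both 0.137) did so, as did Saraf without day 22 mouse 1 (0.0517) and Ada (0.0628), Cited2 (0.0964), Cnp and Arl5c (both 0.0603) without day 22 mouse 2.

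**Figure D4:**
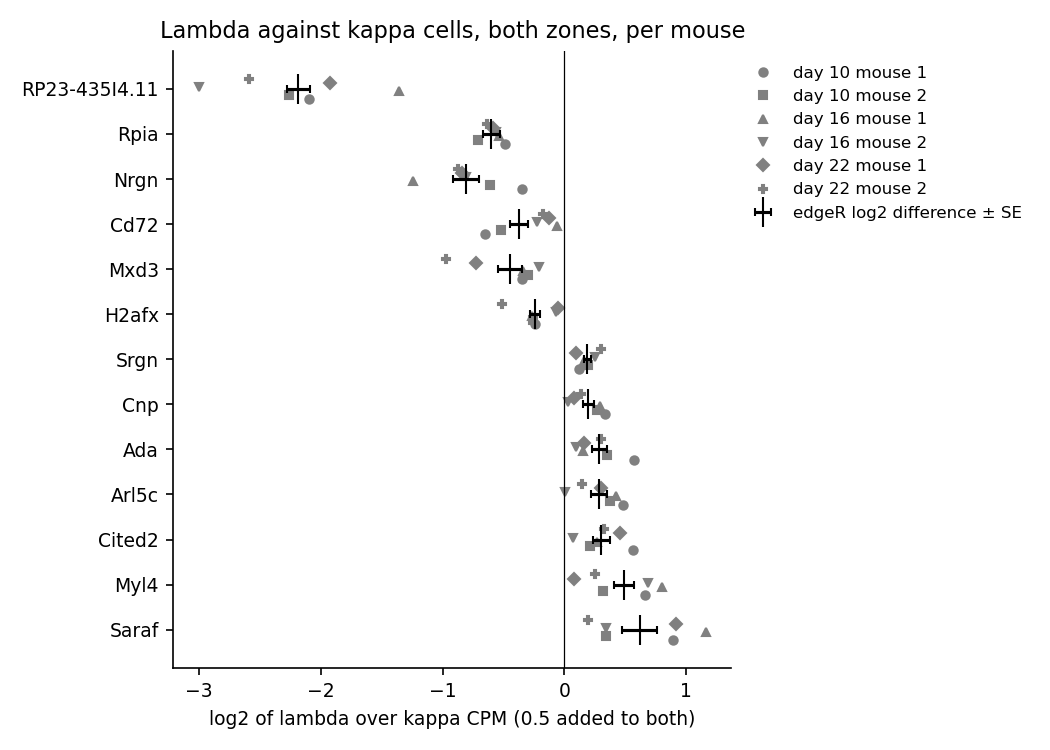
Log2 of lambda over kappa CPM (0.5 added to both) in each of 6 mice for 13 genes, with crosses for the edgeR log2 difference and bars for its standard error. The points of RP23-435I4.11 lie left of those of all other genes shown, and each gene has all 6 mice on 1 side of 0.

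MHC class II molecules present antigen to helper T cells. Of 13 such genes tested, 2 fell in lambda cells and 0 rose, and all 13 had a negative log2 difference, with a median of -0.09 beside 0.0023 over all genes. Over all 8416 genes tested, 18 fell (0.214%), 15 rose (0.178%) and 4144 had a negative log2 difference. H2-Oa, a chain of the peptide-loading regulator DO, was at 199, 275, 272, 233, 350.1 and 284 CPM in lambda cells, against 308, 338, 333, 298, 281 and 333 CPM in kappa cells. It was lower in lambda in 5 of 6 mice, the exception being day 22 mouse 1. The log2 difference was -0.27 ± 0.06 (adjusted p = 0.0324). H2-DMb2, a chain of the peptide exchange factor DM, was lower in 6 of 6 mice, with a difference of -0.14 ± 0.03 (adjusted p = 0.0379). Neither stayed called without day 10 mouse 1 (edgeR adjusted p = 0.272 and 0.256) or without day 10 mouse 2 (0.353 and 0.379). H2-Oa also lost its call without day 16 mouse 1 (0.0987), day 16 mouse 2 (0.102) and day 22 mouse 2 (0.0603), and H2-DMb2 without day 16 mouse 1 (0.153).

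In variable-gene-supported cells 5 of the 13 fell, beside 20 of all 8200 genes tested (0.244%), with a median of -0.12 over the 13. They were H2-Oa (-0.33 ± 0.06, adjusted p = 0.000608), H2-DMb2 (-0.17 ± 0.03, adjusted p = 0.00931), and the classical class II chains H2-Aa (-0.14 ± 0.03, adjusted p = 0.00414), H2-Ab1 (-0.13 ± 0.03, adjusted p = 0.00540) and H2-Eb1 (-0.13 ± 0.03, adjusted p = 0.00414). Under the rule, H2-Aa and H2-Ab1 had log2 differences of -0.11 ± 0.03 (adjusted p = 0.136) and -0.10 ± 0.03 (adjusted p = 0.0974). Within LZ and within DZ, whose sums hold fewer cells, 0 of 13 passed under the rule, with medians of -0.03 and -0.08. With zone as a second block H2-Oa and H2-DMb2 had edgeR adjusted p values of 0.0891 and 0.225. Whether the zones of the cells account for the lower class II values was not tested. Of 14 MHC class I genes tested, 0 passed, with a median of -0.07.

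Of 19 light zone genes tested, 0 passed under the rule, with a median of -0.07. In variable-gene-supported cells, where 20 of all 8200 genes tested fell (0.244%), 2 of the 19 fell. These were Il4i1, an amino acid oxidase induced by IL-4 (-0.43 ± 0.08, adjusted p = 0.00331), and Fcer2a, the low-affinity IgE receptor CD23 (-0.34 ± 0.08, adjusted p = 0.0292). With zone as a second block they had log2 differences of -0.14 and -0.13 under the rule, with adjusted p values of 0.663 and 0.654. Summed levels of the light zone markers were 4839 to 6305 CPM in lambda cells and 5224 to 6014 CPM in kappa cells.

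Some mitotic genes were lower in lambda cells under the rule. Of 24 genes of G2 and M phase, 6 fell and 0 rose, with a median log2 difference of -0.20. Over all 8416 genes tested, 0.214% fell and 0.178% rose. Top2a, the topoisomerase that untangles replicated DNA, was at 445, 421, 466, 440.3, 340.1 and 332 CPM in lambda cells, against 522, 535, 455, 486, 409 and 457 CPM in kappa cells. It was lower in 5 of 6 mice, and its log2 difference was -0.24 ± 0.05 (adjusted p = 0.00762). Ube2c, a ubiquitin-conjugating enzyme of the anaphase-promoting complex, differed by -0.38 ± 0.08 (adjusted p = 0.0256), Aurka, a mitotic kinase, by -0.41 ± 0.09 (adjusted p = 0.0324), and Cks2, a cyclin-dependent kinase subunit, by -0.20 ± 0.04 (adjusted p = 0.0358). H2afx, the histone variant H2A.X, fell in 6 of 6 mice, with a difference of -0.24 ± 0.04 (adjusted p = 0.000650), and Mxd3, a MAX dimerisation protein expressed in proliferating cells, fell in 6 of 6 mice, with a difference of -0.45 ± 0.10 (adjusted p = 0.0256), with no overlap between the groups.

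These mitotic differences did not hold across definitions of a lambda cell. In variable-gene-supported cells 0 of 24 genes passed, with a median of -0.10, and H2afx and Mxd3 had adjusted p values of 0.133 and 0.341. Top2a lost its call without day 10 mouse 1 (edgeR adjusted p = 0.0667), day 10 mouse 2 (0.207) and day 22 mouse 2 (0.0603). Without day 10 mouse 2 or without day 22 mouse 2, Ube2c (0.350 and 0.133), Aurka (0.267 and 0.244), Cks2 (0.409 and 0.255) and Mxd3 (0.125 and 0.175) were not called either; Aurka, Cks2 and Mxd3 were also lost without day 10 mouse 1 (0.146, 0.0984 and 0.0984), and Ube2c, Aurka and Cks2 without day 16 mouse 1 (0.128, 0.0772 and 0.0551). Without cells that hold 3 UMIs of both chains, Top2a, Ube2c and Cks2 had log2 differences of 0.01, 0.02 and 0.02, with the sign turned round. The 235 lambda cells with Iglv1 under 10 UMIs had 14.5% of cells in G2 or M phase, compared with 26.2% of the 653 others and 25.2% of kappa cells. Their median depth was 8117 UMIs, against 9110 in the 653 others. Variable-gene support thus left out shallower lambda cells with fewer in G2 or M phase, while it kept 97.1% of kappa cells. Leaving out cells with both chains also selects by UMI counts. Whether such selection accounts for the lost calls was not tested. Of 24 S phase genes, 0 passed, with a median of 0.03.

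Other groups gave few or no calls. Of the 21 germinal centre identity genes tested, 1 fell, the transcription factor gene Mef2c, with a difference of -0.15 ± 0.03 (adjusted p = 0.0256), lower in 6 of 6 mice, and not called without day 10 mouse 1 (0.180), day 10 mouse 2 (0.196) or day 16 mouse 1 (0.0987). In variable-gene-supported cells Mef2c did not pass, at -0.13 ± 0.03 (adjusted p = 0.117), and 0 of the 21 genes did. Of 19 genes of oxidative phosphorylation 0 passed, with a median of 0.06 and 18 positive values, beside 4272 positive of all 8416 genes tested. The 13 mitochondrially encoded genes went the other way, with 0 calls, a median of -0.06 and 13 negative values. Also at 0 calls were 25 Myc response and ribosome biogenesis genes, 22 genes of AID and mutation repair, 20 of the NF-kB and CD40 response, 15 immediate early genes, 32 of ER folding and secretion, 19 of survival and apoptosis and 7 of plasma cell identity.

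Markers of other cells were low in both groups. Summed T cell markers were 59.5 to 118 CPM in lambda cells and 78.2 to 115 CPM in kappa cells, with Cd4 at 0. Myeloid markers summed to 6.54 to 59.5 CPM in lambda and 7.91 to 65.8 CPM in kappa cells, and red cell markers to 9.81 to 28.9 CPM in lambda and 11.5 to 38.8 CPM in kappa cells. Naive B cell markers summed to 461 to 624 CPM in lambda and 387 to 638 CPM in kappa cells. Germinal centre identity genes were at 4433 to 5000 CPM in lambda and 4232 to 4986 CPM in kappa cells, and plasma cell genes at 2591 to 2927 CPM in lambda and 2532 to 2683 CPM in kappa cells.

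Within the light zone 4 of 7366 genes passed (0.0543%), 1 higher (0.0136%) and 3 lower (0.0407%). Anxa2, a calcium-dependent membrane-binding protein, was at 402, 378, 514, 470.2, 383 and 420.3 CPM in lambda cells, against 297, 283, 397, 377, 402 and 359.6 CPM in kappa cells. It was higher in lambda in 5 of 6 mice, with a log2 difference of 0.30 ± 0.05 (adjusted p = 0.00193), and 0.31 ± 0.06, adjusted p = 0.00152 in variable-gene-supported cells; the call was lost without day 10 mouse 2 (edgeR adjusted p = 0.125). RP23-435I4.11, Rpia and Nrgn were lower, Nrgn with a difference of -0.81 ± 0.14 (adjusted p = 0.00193). In LZ, Nrgn lost its call without day 10 mouse 2 (edgeR adjusted p = 0.152) and day 22 mouse 2 (0.0619), and Rpia without day 10 mouse 2 (0.198), day 16 mouse 1 (0.0921) and day 22 mouse 2 (0.190). The next genes by p did not pass: Crip1, Cnn2, Knop1, Gdi2 and Actb had log2 differences from 0.09 to 0.46, and Cd72, Iqgap1 and Hist1h2bj from -0.38 to -0.31. In variable-gene-supported cells 8 of 7076 passed (0.113%), 3 higher (0.0424%) and 5 lower (0.0707%), all 4 of these among them, and Cd72 was then lower, with a difference of -0.61 ± 0.10, adjusted p = 4.04e-05.

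Within the dark zone 48 of 7032 genes passed (0.683%), 7 higher (0.0995%) and 41 lower (0.583%). The lower genes were led by cell division genes: 12 of 24 G2 and M phase genes fell and 0 rose, all 24 were negative, and the median log2 difference was -0.33 beside 0.0073 over all genes tested in DZ. Top2a was at 417, 468, 499, 494, 342 and 354 CPM in lambda cells, against 602, 608, 559, 554, 462 and 518 CPM in kappa cells. It was lower in lambda in 6 of 6 mice, with a difference of -0.36 ± 0.05 (adjusted p = 0.000192). Nusap1, a spindle protein, was at 157, 192, 193, 221, 163 and 130.1 CPM in lambda cells, against 288, 248, 253, 242, 200.3 and 248 CPM in kappa cells. It too was lower in 6 of 6 mice, with a difference of -0.49 ± 0.08 (adjusted p = 0.000790).

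More mitotic genes followed in DZ. Ube2c differed by -0.57 ± 0.10 (adjusted p = 0.00167) and Cenpf, a kinetochore protein, by -0.51 ± 0.09 (adjusted p = 0.00124), each lower in 5 of 6 mice and higher in day 22 mouse 1. Ccnf, cyclin F, differed by -0.67 ± 0.14 (adjusted p = 0.00887), Mxd3 by -0.69 ± 0.12 (adjusted p = 0.00208), and Sapcd2 and Ccdc61 by -0.71 ± 0.16 (adjusted p = 0.0244) and -0.81 ± 0.19 (adjusted p = 0.0234). Top2a, Nusap1, Ube2c and Cenpf stayed called in DZ whichever mouse was left out. Without day 22 mouse 2, Ccnf (edgeR adjusted p = 0.0970), Mxd3 (0.0519), Sapcd2 (0.0739) and Ccdc61 (0.0624) lost their calls, and Sapcd2 and Ccdc61 also did so without either day 10 mouse or day 16 mouse 1, with adjusted p values from 0.0890 to 0.160. The phase calls moved the same way: cells in G2 or M phase made up 33.3%, 38.9%, 31.0%, 40.0%, 30.0% and 26.1% of lambda DZ cells, against 43.3%, 48.5%, 41.1%, 41.5%, 35.3% and 37.3% of kappa DZ cells, so lambda was lower in 6 of 6 mice. This phase share was taken from the same counts and is no separate test.

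The DZ result weakened in variable-gene-supported cells. There 5 of 6698 genes passed (0.0746%), with 4 shared with the 48, and 0 of 24 mitotic genes, whose median was -0.23. Top2a, Nusap1, Ube2c and Cenpf had log2 differences of -0.25 ± 0.06, -0.40 ± 0.09, -0.53 ± 0.12 and -0.44 ± 0.10, with adjusted p values of 0.0608, 0.0551, 0.0551 and 0.0608. Among DZ cells pooled over mice, the G2 or M share was 35.9% in lambda cells with Iglv1 at 10 UMIs and 26.9% in the other lambda cells, compared with 39.7% in kappa cells. By mouse it was 39.3%, 40.2%, 31.7%, 40.8%, 26.1% and 30.2% in the lambda cells with Iglv1 at 10 UMIs. In kappa cells it was 43.3%, 48.5%, 41.1%, 41.5%, 35.3% and 37.3%, so these lambda cells were lower in every mouse. H2afx, Rpia and RP23-435I4.11 were among the 4 shared genes. Without day 22 mouse 2, 14 genes passed in DZ.

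**Figure D5:**
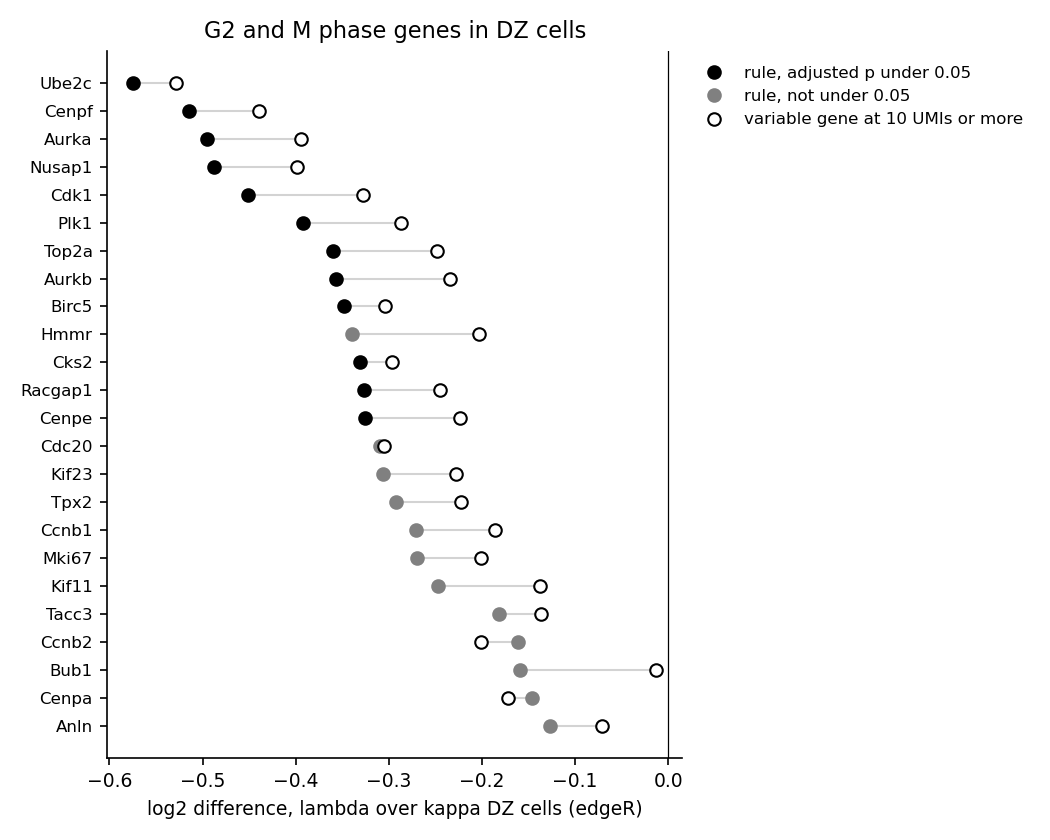
Log2 difference, lambda over kappa, of 24 G2 and M phase genes in DZ, by the rule (filled; black where the adjusted p is under 0.05) and for variable-gene-supported cells (open). All 24 lie below 0 by the rule, with a median of -0.33, and the median for supported cells is -0.23.

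The genes higher in lambda DZ cells were of mixed function. Apoe, apolipoprotein E, had a difference of 0.45 ± 0.09 (adjusted p = 0.00516) and was higher in 5 of 6 mice. Gimap4, a lymphocyte GTPase, averaged 41.1 ± 12.2 CPM in lambda cells and 27.3 ± 3.52 CPM in kappa cells (SD, n = 6), with a difference of 0.63 ± 0.15 (adjusted p = 0.0307). Srgn and Cd79b rose by small amounts, 0.18 ± 0.04 (adjusted p = 0.0195) and 0.13 ± 0.03 (adjusted p = 0.0447), as did Aldoa, a glycolytic aldolase, by 0.18 ± 0.04 (adjusted p = 0.0447), and Nadk, NAD kinase, by 0.58 ± 0.14 (adjusted p = 0.0497). Each of the 6 also lost its call without day 16 mouse 1 (edgeR adjusted p from 0.0520 to 0.117) and, apart from Nadk, without day 10 mouse 2 (from 0.0936 to 0.412). All but Apoe lost it without day 22 mouse 2 (from 0.154 to 0.312), Srgn, Aldoa and Nadk without day 16 mouse 2 (from 0.103 to 0.211), Aldoa and Nadk without day 10 mouse 1 (0.0890 and 0.132), and Cd79b without day 22 mouse 1 (0.0551). None of these 6 passed in variable-gene-supported DZ cells, with adjusted p values from 0.0591 to 0.414.

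No gene was shown to differ between lambda and kappa by a different amount in the 2 zones. edgeR's quasi-likelihood test of that difference called 0 of 7626 genes (0%), with 347 at an unadjusted p under 0.05, and DESeq2 called 0, with 234. The longer list of DZ genes is therefore not shown to be particular to the dark zone.

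The difference between lambda and kappa cells changed between day 10 and day 22 for 6 of 8416 genes (0.0713%), 3 upward (0.0356%) and 3 downward (0.0356%). Il4i1 was at 78.8, 103, 132, 109, 221 and 193 CPM in lambda cells, against 111, 169.7, 178, 189, 133 and 182 CPM in kappa cells. Lambda was below kappa in both mice of days 10 and 16 and above it in both mice of day 22. The change in the log2 difference, day 22 minus day 10, was 0.97 ± 0.16 (SE, edgeR adjusted p = 0.00401). Cd83, a surface protein of light zone cells, was at 245, 315, 296, 279, 335 and 334 CPM in lambda cells, against 339.9, 376, 351, 355, 270.2 and 304 CPM in kappa cells. It followed the same order, with a change of 0.55 ± 0.10 (SE, edgeR adjusted p = 0.0189), as did the nuclear non-coding RNA Malat1, with a change of 0.29 ± 0.05 (SE, edgeR adjusted p = 0.0189).

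Anxa2, Stmn1 and Smco4 changed the other way. Anxa2 was at 619.5, 572, 660.0, 606, 461 and 662 CPM in lambda cells, against 403, 413, 563, 557, 605 and 563 CPM in kappa cells. Lambda was above kappa except in day 22 mouse 1, and the change was -0.55 ± 0.11 (SE, edgeR adjusted p = 0.0294). Stmn1, the microtubule regulator stathmin, changed by -0.34 ± 0.07 (SE, edgeR adjusted p = 0.0311), with lambda below kappa in both day 22 mice, and Smco4 by -0.62 ± 0.13 (SE, edgeR adjusted p = 0.0416). With 2 mice per day these calls depend on each animal: DESeq2 called 0 of the 6 genes, and without day 10 mouse 2 edgeR called 0 genes. The fit joined both zones without a zone term. Lambda minus kappa, the DZ share was 12.2 and 9.99 points on day 10, and -7.46 and 9.07 on day 22. For the S phase share it was 1.80 and 6.24 points on day 10, and -12.7 and 2.04 on day 22. Whether zone or phase composition accounts for the changes was not tested. In variable-gene-supported cells Il4i1, Malat1, Cd83 and Anxa2 passed again (adjusted p = 0.0243, 0.0176, 0.0326 and 0.000495), with 7 of 8200 genes in all (0.0854%), 3 upward (0.0366%) and 4 downward (0.0488%).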

How the data were processed

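The deposited matrix holds raw UMI counts of 14493 genes in 6619 cells, and the deposited cell table holds state, phase, day, mouse and module scores (unit: score), all made by the authors. Cell Ranger, Seurat, mm10 and GRCm38 are named in the submitters' processing notes; versions, counting by strand, doublet treatment and the method of the states and phases are not given in the sources used here. Receptor sequences were not analysed here, and no doublet caller was run. The 21 library samples pool all mice, so mouse and day come from the cell table, and mice, whose pairs are cells of the same animal, are the replicates. Between the fractions 6 cell barcodes were shared.

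Counts without 253 immunoglobulin genes were summed per mouse, light chain and, where stated, zone (10 cells or more), and tested with edgeR 4.0.16 (quasi-likelihood, TMM, filterByExpr, mouse as block) in R 4.3.3, with Benjamini-Hochberg adjustment over all genes tested and a threshold of 0.05. Shares were tested over mice by exact permutation in Python 3.11.15 with scipy 1.17.1. An isotype or a heavy chain variable gene was called by the same kind of rule as the light chains (3 UMIs and 2 times the next). Scripts were tested on simulated data.

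Members and 31 gene lists were chosen with earlier results of these data known, and lists are described by counts and medians. Genes named were the 6 largest differences per direction among called genes with 20 CPM in the higher group and 1 direction in every mouse, filled by lowest p, plus up to 4 members of lowest p per list; H2-Eb1 was named after its value was seen, and not every gene taken is given. Of 281 genes looked up, 276 matched GENCODE M21. Alternatives were DESeq2 1.42.0 (its size factors, its test), no count filter, other light chain calls, thinning to 5023 UMIs per cell (leaving out 546 of 5463 cells), no replicate block, immunoglobulin genes kept, 30 cells per sum, IgG1 or G1 cells, zone as a block, no cells with both chains, and each mouse left out. The variable-gene-supported calls were added after the data were seen. Intervals cover counting error only.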

Additional observations from a re-analysis of the deposited data

Results flagged for a closer look

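Among values per mouse, 4 of 64 groups of 6 had a value far from the others (by the gap to the nearest value over the range), and chance gives about 1 in 20. In day 22 mouse 1, S phase cells were 12.7 points fewer among lambda than among kappa cells (difference -12.7, others 1.80 to 9.51). In DZ the same mouse had log2 differences of 0.44 for Cenpf (others -0.83 to -0.42) and 0.65 for Ube2c (others -1.13 to -0.57). In DZ, day 22 mouse 2 had -1.75 for Ccnf (others -0.75 to -0.30).

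For 6 genes the log2 difference of lambda over kappa changed between day 10 and day 22 by edgeR's test of that change: Il4i1 by 0.97, Malat1 by 0.29, Cd83 by 0.55, Anxa2 by -0.55, Stmn1 by -0.34 and Smco4 by -0.62. DESeq2 called none of them, and leaving out a day 10 mouse left 0 or 1 call.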

How the results depend on the processing

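Counts of called genes are given in the order lambda over kappa, the same in LZ, in DZ, the zone difference and the day difference, and were 33, 4, 48, 0 and 6. They were 6, 2, 15, 0 and 0 by DESeq2's test, 110, 12, 106, 8 and 17 without a count filter, and 75, 4, 76, 11 and 10 with the stricter light chain call. With each mouse left out they ranged from 6 to 109, 1 to 10, 14 to 71, 0 to 0 and 0 to 47. Lambda over kappa gave 7 without day 10 mouse 1, 6 without day 10 mouse 2, 21 without day 16 mouse 1 and 109 without day 22 mouse 1. LZ gave 1 without day 10 mouse 2, 2 without day 22 mouse 2 and 10 without day 22 mouse 1, and DZ gave 31 without day 16 mouse 1. The day difference gave 1, 0, 10 and 47 without day 10 mouse 1, day 10 mouse 2, day 16 mouse 2 and day 22 mouse 2.

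Pairs are cells of the same mouse. With no replicate block the first 3 counts were 2, 1 and 4. Calling lambda also from Iglc2, Iglc3, Iglv2 and Iglv3, which kappa cells hold too, gave 446, 188 and 386. IgG1 cells alone gave 1, 1 and 1, and G1 cells gave 2 in LZ and 4 in DZ. Lambda over kappa gave 107 without cells with both chains and 56 with zone as a block. LZ gave 33 with immunoglobulin genes kept, 1 after thinning and 8 with variable-gene support. DZ gave 5 with that support and 6 with a variable gene of 1 chain only, where the day difference gave 3. RP23-435I4.11, Rpia, Nrgn, H2afx and Srgn stayed called without any 1 mouse.

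The slope of the lambda share stayed negative: -3.13 (exact permutation p = 0.0222) with the stricter call, -1.23 (exact permutation p = 0.356) with the wider lambda call, -1.23 (p = 0.0667) in LZ alone, and -2.07 to -0.98 with a mouse left out (p 0.0333 to 0.167). The lambda share of DZ minus that of LZ cells was 17.0 points with the stricter call, against 8.09. The DZ share difference was -5.73 points in IgG1 cells and 6.998 to 12.7 with a mouse left out. The G2M difference was -12.8 points with the wider call and -0.45 with variable-gene support, against -2.84 under the rule, and that for Ighv1-72 was 42.6 with the stricter call and 14.6 with the wider call and in IgG1 cells, against 30.6. Ranges with a mouse left out were -0.088 to 4.35 points for S, -3.86 to -2.01 for G2M, 27.9 to 35.5 for Ighv1-72, -11.9 to -3.72 for IgG1, 1.83 to 7.20 for IgM, and -92.4 to 298.6 UMIs for depth, which was -458.75 UMIs with the wider call and -83.7 without day 16 mouse 1.

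Of 1186 values of named genes under alternatives, 1169 kept their direction. With the wider call the log2 differences turned to 0.084 (Nrgn), 0.11 (Cd72), 0.15 (Il4i1), 0.029 (Fcer2a), 0.12 (Cd83) and 0.0061 (H2-Oa), and in LZ to 0.22 (Nrgn) and 0.29 (Cd72). In G1 cells they were 0.011 (H2afx) and 0.046 (Cks2), in IgG1 cells 0.021 (Cd83), -0.0013 (Cd79b) and, in DZ, 0.20 (Sapcd2), with zone as a block 0.014 (Cd83), and without cells with both chains 0.0058 (Top2a), 0.020 (Ube2c) and 0.021 (Cks2). The cause was not tested. Lambda sums of few cells limit what low genes can show, and day contrasts rest on 2 mice a side.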

Other observations

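Lambda cells occurred in every state named by the authors that was counted. Among called cells they made up 16.7% of cells in transition from LZ to DZ (28 of 168), 20.8% of pre-memory cells (68 of 327) and 22.9% of plasma cells in the PC fraction (46 of 201), beside 24.1% of DZ and 19.0% of LZ cells over all mice. These shares pool cells over mice and days. By mouse they ran from 2.17% to 50.0% for cells in transition, 4.76% to 25.0% for pre-memory cells and 11.1% to 46.2% for plasma cells. The exact 95% intervals of the pooled shares were 11.4 to 23.2, 16.5 to 25.6 and 17.3 to 29.3. They cover counting error only, not the spread between mice, and the states were not tested against each other.

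Among the authors' deposited module scores, the plasma cell score was higher in lambda cells in 6 of 6 mice, with means of medians of 0.142 ± 0.00543 in lambda cells and 0.136 ± 0.00511 in kappa cells (SD, n = 6), and no test was run on it. The dark zone score without cell cycle genes was 0.0196 ± 0.0130 in lambda cells and 0.00436 ± 0.0117 in kappa cells, higher in 5 of 6 mice.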
